A study of Mus musculus with 24 samples.

Results

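The vesicular glutamate transporters load glutamate into synaptic vesicles, using the proton gradient that the vesicular ATPase builds across the vesicle membrane. The family has 3 genes in the mouse, Slc17a7 (VGLUT1), Slc17a6 (VGLUT2) and Slc17a8 (VGLUT3). Slc17a7 is known as the main transporter of excitatory neurons of the cortex and hippocampus, Slc17a6 as that of thalamic and other subcortical excitatory neurons, and Slc17a8 is found in small populations that also use another transmitter, such as serotonin neurons, cholinergic interneurons and some CCK-positive interneurons. Trimethylation of lysine 4 of histone H3 (H3K4me3) marks the promoters of genes that are transcribed or poised, so that the read count at a transcription start site (TSS) is a measure of the mark there and not of RNA or protein. The members were the regions of the H3K4me3 count tables that overlapped an annotated TSS of these 3 genes (mm9, GENCODE release M1), and there were 2 such regions among 17993, of which 13404 overlapped a TSS of any gene.

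All mice carried a FLAG-tagged histone H2B knocked into the Rosa26 locus behind a floxed stop, driven by the CAG promoter, on a C57BL/6 background, and the tissue was labelled cerebral cortex. In Rosa H2B-FLAG mice the stop had been removed by Vasa-Cre, which acts in the germ line, so the tagged histone was made in all cell types, in adults whose age and sex were not given in the sources used here. In Camk2a H2B-FLAG mice, double heterozygotes with CaMK-CreERT2, males were injected at the age of 8 weeks with 1 mg of tamoxifen a day for 5 days and taken a month later, so the tagged histone marked Camk2a-positive neurons. Single ChIP-Seq used the anti-H3K4me3 antibody only. Tandem ChIP-Seq (tChIP-Seq) first selected chromatin with the tag through an anti-FLAG antibody, and the H3K4me3 antibody followed. Both lines were measured by both methods, which gave 4 groups with 3 libraries in each, and every lysate pooled the cortex of 2 animals. The total count over all regions ranged from 1457261 to 1828371 in the Rosa tChIP-Seq libraries, from 2709729 to 3049130 in the Camk2a tChIP-Seq libraries, from 4063200 to 4233144 for single ChIP-Seq of Camk2a, and up to a range of 6316125 to 8644574 for that of Rosa.

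Slc17a7 and Slc17a6 each had a single region, and both lay across the TSS and the start of the first intron. The Slc17a7 region (ENSMUSG00000070570.4, plus strand) was chr7:52418842-52422357. It was 3516 bp wide, reached from 449 bp upstream to 3066 bp downstream of the TSS at 52419291, and contained exon 1 of 12. The Slc17a6 region (ENSMUSG00000030500.5, plus strand) was chr7:58876912-58879529. It was 2618 bp wide, reached from 288 bp upstream to 2329 bp downstream of the TSS at 58877200, and also contained exon 1 of 12. No other gene overlapped either region, so their reads were not shared with a neighbour. In width they stood at the percentiles 90.0 and 76.9 of all regions.

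Slc17a8 (ENSMUSG00000019935.9, chr10:89036765-89083998, minus strand) had no counted region. None overlapped either of its 2 annotated TSSs, lay within 1000 bp of them, or overlapped the gene body. The nearest counted region lay 63590 bp upstream, at the start of Scyl2. No value of H3K4me3 can therefore be given for Slc17a8, and whether the mark was present below the limit of peak calling was not tested.

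The sequences around the 3 TSSs are shown because the genes with and without a counted region can be compared in them. Each runs 5′ to 3′ on the strand of the gene in mm9, from 250 bases before to 30 bases after the TSS, with CpG dinucleotides in capitals. The windows are chr7:52419041-52419321 for Slc17a7, chr7:58876950-58877230 for Slc17a6 and chr10:89083968-89084248 for Slc17a8.
Slc17a7: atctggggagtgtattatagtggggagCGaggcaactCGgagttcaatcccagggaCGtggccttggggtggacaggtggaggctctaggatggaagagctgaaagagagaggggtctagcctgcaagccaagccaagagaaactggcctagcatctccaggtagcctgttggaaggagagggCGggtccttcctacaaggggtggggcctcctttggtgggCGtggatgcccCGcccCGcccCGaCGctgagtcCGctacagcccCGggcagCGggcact
Slc17a6: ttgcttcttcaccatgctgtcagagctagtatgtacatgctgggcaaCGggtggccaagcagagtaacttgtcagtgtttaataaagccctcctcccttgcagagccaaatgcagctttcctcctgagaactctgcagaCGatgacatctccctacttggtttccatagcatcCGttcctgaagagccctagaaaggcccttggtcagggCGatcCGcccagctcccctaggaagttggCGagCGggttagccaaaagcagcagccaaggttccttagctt
Slc17a8: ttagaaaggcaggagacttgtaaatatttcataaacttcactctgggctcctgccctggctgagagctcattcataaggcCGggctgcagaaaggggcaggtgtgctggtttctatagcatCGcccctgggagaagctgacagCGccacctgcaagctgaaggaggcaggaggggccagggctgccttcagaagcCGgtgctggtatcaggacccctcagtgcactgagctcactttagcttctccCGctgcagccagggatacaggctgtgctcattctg
The Slc17a7 window held 12 CpG, the Slc17a6 window 7 and the Slc17a8 window 5, against a median of 11 in the 46021 windows of the same length at TSSs of protein-coding transcripts. Their GC contents were 62.6%, 53.0% and 56.6%. The RefSeq promoter table (GRCm38.p6) placed the start of Slc17a7 and Slc17a6 on the same base, and the GENCODE start of Slc17a8 lay at position -4 from the RefSeq start.

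Short promoter motifs were searched on both strands of these windows. The GC box (GGGCGG) occurred in 43.26% of all windows. It was found in Slc17a7 at positions -70 to -65 on the sense strand, and at -18 to -13 and -13 to -8 on the antisense strand, where the last matches share a base. Slc17a6 had a single match on the antisense strand at -36 to -31, and Slc17a8 had none. The TATA box (TATAAA, in 11.03% of windows), the CCAAT box (CCAAT, 34.67%), the cAMP response element (TGACGTCA, 2.11%) and the E-boxes CAGATG (14.05%) and CACGTG (7.37%) had no match in these letters in any of the 3 windows.

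**Figure D1:**
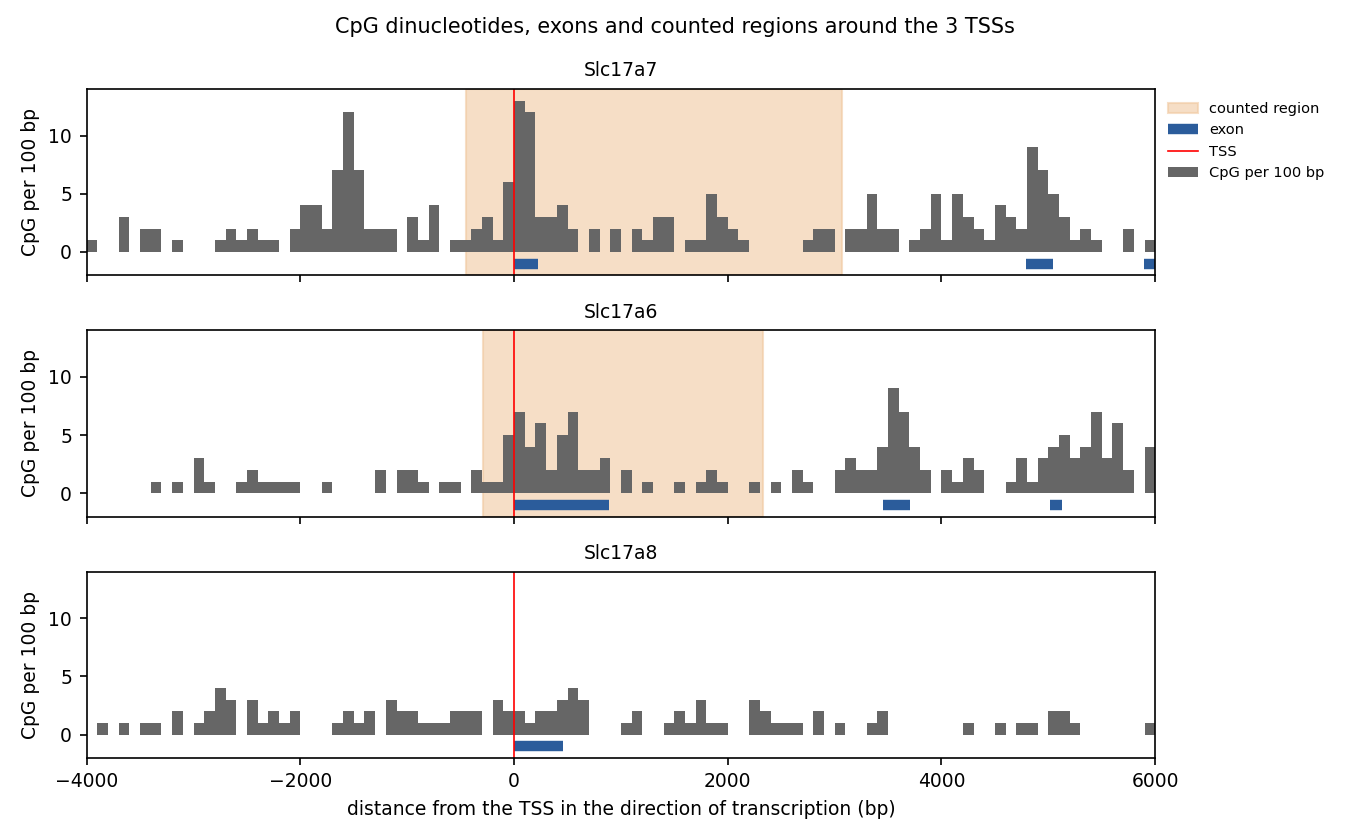
CpG dinucleotides per 100 bp (grey bars, vertical axis), exons (blue) and the counted region (shaded) against the distance from the TSS in bp (red line at 0, transcription to the right) for the 3 genes; Slc17a8 has no counted region. The highest bar within 1000 bp downstream of the TSS is 13 for Slc17a7, 7 for Slc17a6 and 4 for Slc17a8.

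Over the whole counted regions, which reach 3066 and 2329 bp downstream of the TSS, CpG density was low for both transporters. The Slc17a7 region held 80 CpG, or 2.28 per 100 bp, and the Slc17a6 region 54, or 2.06 per 100 bp. The median of the 13404 regions at a TSS was 4.36 per 100 bp, which placed Slc17a7 at percentile 8.2 and Slc17a6 at percentile 6.5. In the shorter windows at the TSS shown above, the CpG count of Slc17a7 was at percentile 51 and that of Slc17a6 at 38.5. These percentiles have different backgrounds, counted regions at a TSS for the former and windows at all protein-coding TSSs for the latter. They cannot be set directly against each other.

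Slc17a7, the cortical transporter, showed the widest range over the groups. Its raw counts were 671, 818 and 627 in Rosa single ChIP-Seq and 390, 420 and 386 in Camk2a single ChIP-Seq. In tChIP-Seq they were 77, 67 and 60 in Rosa and 373, 372 and 322 in Camk2a. On a common scale of CPM (reads per 1000000 counted reads, with TMM normalization over the 12 libraries), the single ChIP-Seq libraries of the lines overlapped, Rosa tChIP-Seq was far below them, and Camk2a tChIP-Seq was above them. The CPM values were 97.2, 97.9 and 102.6 in Rosa single ChIP-Seq and 96.0, 100.2 and 96.2 in Camk2a single ChIP-Seq. They were 40.2, 40.0 and 39.4 in Rosa tChIP-Seq and 122.4, 134.2 and 118.6 in Camk2a tChIP-Seq. The Slc17a7 means were thus 99.2 ± 2.94 and 97.5 ± 2.38 in single ChIP-Seq of Rosa and Camk2a, and 39.8 ± 0.42 and 125 ± 8.16 in the corresponding tChIP-Seq groups (SD over 3 libraries).

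Slc17a6, the subcortical transporter, had a weaker mark, with few reads in Rosa tChIP-Seq. Its raw counts were 126, 154 and 103 in Rosa single ChIP-Seq and 87, 88 and 67 in Camk2a single ChIP-Seq. In tChIP-Seq they were 35, 14 and 25 in Rosa and 101, 79 and 93 in Camk2a. On the CPM scale, only the Camk2a tChIP-Seq libraries stood apart from the other groups. Slc17a6 was at 18.3, 18.4 and 16.9 CPM in Rosa single ChIP-Seq and at 21.4, 21.0 and 16.7 CPM in Camk2a single ChIP-Seq. It was at 18.3, 8.35 and 16.4 in Rosa tChIP-Seq and at 33.1, 28.5 and 34.3 in Camk2a tChIP-Seq. The Slc17a6 means were 17.8 ± 0.862, 19.7 ± 2.61, 14.3 ± 5.27 and 32.0 ± 3.05 CPM in the same order (SD over 3 libraries). The second Rosa tChIP-Seq library was the lowest, and its 14 reads have an exact Poisson 95% interval of 7.65 to 23.5 reads, or 4.56 to 14.0 CPM. Such intervals cover counting error only.

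**Figure D2:**
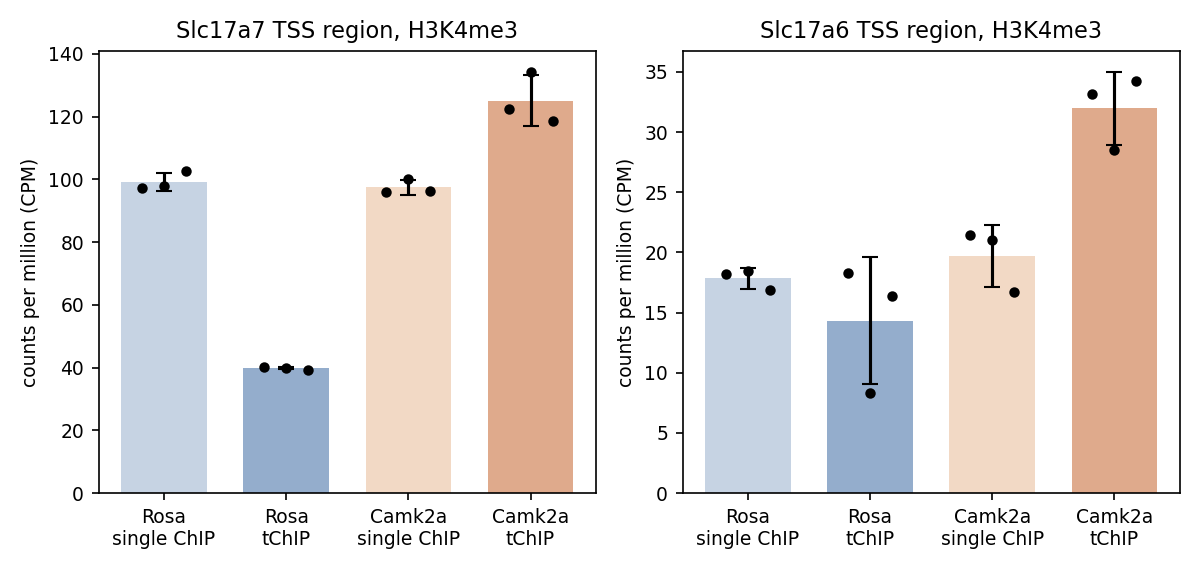
H3K4me3 at the Slc17a7 (left) and Slc17a6 (right) TSS regions in CPM (vertical axis, starting at 0, with a different scale for each gene); points are libraries, bars are means and error bars are SD of the 3 libraries of a group. For Slc17a7, Rosa tChIP-Seq (39.8 CPM) lies below and Camk2a tChIP-Seq (125 CPM) above both single ChIP-Seq groups, while for Slc17a6 only Camk2a tChIP-Seq (32.0 CPM) lies apart from the other groups.

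Divided by region width, Slc17a7 carried more of the mark than Slc17a6 in every group. The density of Slc17a7 was 28.2 ± 0.835 CPM per kb in Rosa single ChIP-Seq and 27.7 ± 0.676 in Camk2a single ChIP-Seq, near the medians of all TSS regions (29.3 and 29.1 CPM per kb). It was 11.3 ± 0.119 CPM per kb in Rosa tChIP-Seq and 35.6 ± 2.32 in Camk2a tChIP-Seq, at percentiles 6.6 and 72.5 of the TSS regions. The SD of 0.119 is likewise smaller than the counting error of the 60 to 77 reads in each Rosa tChIP-Seq library. The density of Slc17a6 was 6.82 ± 0.329, 7.53 ± 0.997, 5.48 ± 2.01 and 12.2 ± 1.16 CPM per kb in Rosa and Camk2a single ChIP-Seq and in Rosa and Camk2a tChIP-Seq. Among TSS regions these stood at percentiles 5.4, 4.6, 0.5 and 10.3, so the Slc17a6 region was among the weakest marked in all groups.

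The line comparison in tChIP-Seq asks which promoters carry more H3K4me3 in chromatin of Camk2a-positive neurons than in chromatin of all cell types. Both transporters rose. Slc17a7 was 3.15-fold higher in Camk2a than in Rosa (95% interval 2.75 to 3.61), a log2 fold change of 1.65 ± 0.0985 (SE, edgeR quasi-likelihood test, Benjamini-Hochberg adjusted p = 1.5e-25). It ranked 116 of 17993 regions by log2 fold change. Slc17a6 was 2.22-fold higher (1.72 to 2.86), a log2 fold change of 1.15 ± 0.185 (edgeR adjusted p = 1.57e-07), and ranked 836. In each gene the 3 Camk2a libraries lay above the 3 Rosa libraries. The share of all regions that separate in this way was not counted, so this is a description only. Called higher at an adjusted p under 0.01 were 2 of 2 member regions, against 17.0% of all regions, and 14.6% of all regions were called lower. With library totals in place of TMM factors, the calls over all regions were 2570 higher and 3315 lower, against 3062 and 2620. In bulk chromatin, fewer cells with the mark and less of the mark per cell cannot be told apart.

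The same comparison in single ChIP-Seq, where the antibody sees the chromatin of all cells in either line, gave no difference between the lines that passed the test at either promoter. Slc17a7 differed by a log2 fold change of -0.02 ± 0.0534 (95% interval -0.13 to 0.08, edgeR adjusted p = 0.838). Slc17a6 differed by 0.14 ± 0.122 (-0.10 to 0.38, edgeR adjusted p = 0.545). The groups overlapped for both genes, and the upper bounds correspond to 1.06-fold for Slc17a7 and 1.30-fold for Slc17a6. Of all regions, 0.928% were called higher and 1.22% lower (167 and 219), which became 194 and 57 with library totals.

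tChIP-Seq and single ChIP-Seq differ by the FLAG step, and they were compared within each line. The paper reports loci with biased enrichment between these methods in Rosa. To offset such biases, it mainly compared tChIP-Seq of both lines and did not set tChIP-Seq against single ChIP-Seq in its later analyses. Differences between the methods are therefore differences in recovered reads, and their cause was not tested. In Rosa, where the tag is in all cell types, the Slc17a7 signal was lower in tChIP-Seq. It was at 0.406 of its single ChIP-Seq level (0.357 to 0.462), a log2 fold change of -1.30 ± 0.0951 (edgeR adjusted p = 3.59e-40), and ranked 17952 of 17993 regions, among the most reduced of the table. Slc17a6 did not pass the test in Rosa, with a log2 fold change of -0.30 ± 0.183 (95% interval -0.66 to 0.06, edgeR adjusted p = 0.151) and overlapping groups. This value rested on single libraries. It was -0.55 without the first Rosa tChIP-Seq library and -0.03 without the second, and was not called in either case. Of all regions, 24.7% were called higher and 22.5% lower in this comparison (4439 and 4046), which became 5298 and 2522 with library totals.

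In Camk2a, both transporters rose from single ChIP-Seq to tChIP-Seq, by less than they differed between the lines. Slc17a7 was 1.28-fold higher (1.176 to 1.398), a log2 fold change of 0.36 ± 0.063 (edgeR adjusted p = 2.56e-07). Slc17a6 was 1.62-fold higher (1.35 to 1.94), a log2 fold change of 0.70 ± 0.132 (edgeR adjusted p = 1.61e-06). The groups did not overlap for either gene, again without a count of how many of all regions separate so. Of all regions, 25.3% were called higher and 22.6% lower. For Slc17a7, the 3.15-fold line difference in tChIP-Seq thus stood beside a 1.28-fold rise in Camk2a and a larger fall, to 0.406, in Rosa, each relative to single ChIP-Seq of the same line, and these comparisons share libraries.

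The interaction of line and kind tests whether the line difference changed with the kind of ChIP-Seq. It was larger in tChIP-Seq for both genes. The log2 difference was 1.67 ± 0.114 for Slc17a7 (edgeR adjusted p = 5.19e-34, rank 86 of 17993) and 1.00 ± 0.223 for Slc17a6 (edgeR adjusted p = 5.78e-05, rank 925). Of all regions, 13.7% were called higher and 13.2% lower, which in counts is 2466 and 2375, and 1894 and 2970 with library totals.

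**Figure D3:**
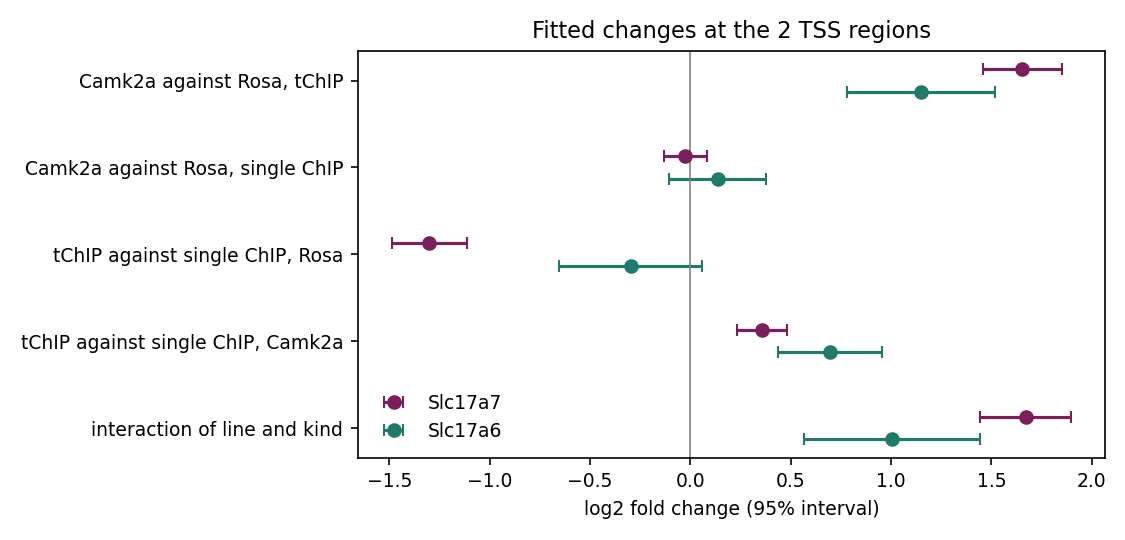
Log2 fold changes of Slc17a7 (purple) and Slc17a6 (green) in the 5 comparisons (horizontal axis), with 95% intervals as bars and 0 as the grey line. Between lines, the Slc17a7 interval is -0.13 to 0.08 for single ChIP-Seq and 1.46 to 1.85 for tChIP-Seq, and tChIP-Seq against single ChIP-Seq in Rosa is the comparison in which the intervals of the 2 genes lie furthest apart.

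Whether the promoters changed relative to each other was measured by the ratio of their counts within a library, which does not depend on library scaling. The ratio of Slc17a7 to Slc17a6 reads was 5.31, 5.30 and 6.06 in the Rosa single ChIP-Seq libraries and 4.46, 4.75 and 5.73 in those of Camk2a. It was 2.18, 4.66 and 2.37 in Rosa tChIP-Seq and 3.68, 4.69 and 3.45 in Camk2a tChIP-Seq. The Rosa tChIP-Seq library with 14 reads of Slc17a6 was again the one apart from its group. In tChIP-Seq the log2 ratio was 0.43 higher in Camk2a than in Rosa (1.96 ± 0.233 against 1.53 ± 0.599, SD, n = 3 each, exact two-sided permutation p = 0.3), and 0.78 higher without that library. In single ChIP-Seq it was lower in Camk2a, with a difference of -0.16 (2.31 ± 0.187 against 2.47 ± 0.112, exact permutation p = 0.3). With 3 against 3 libraries this test cannot go below 0.1. The ratios of the lines overlapped in both kinds, and each difference was smaller in size than the larger of its group SDs.

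Within a line, the ratio of Slc17a7 to Slc17a6 was compared between the kinds of ChIP-Seq after its values had been seen. In Rosa the log2 ratio was lower in tChIP-Seq, with a difference of -0.94 and no overlap of the groups (exact permutation p = 0.1, the smallest possible), and -1.29 without the library with 14 reads. In Camk2a the difference was -0.34 with overlapping groups (exact permutation p = 0.2). Adjustment over the 4 ratio comparisons would leave none past 0.05, since no unadjusted p was below 0.1.

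**Figure D4:**
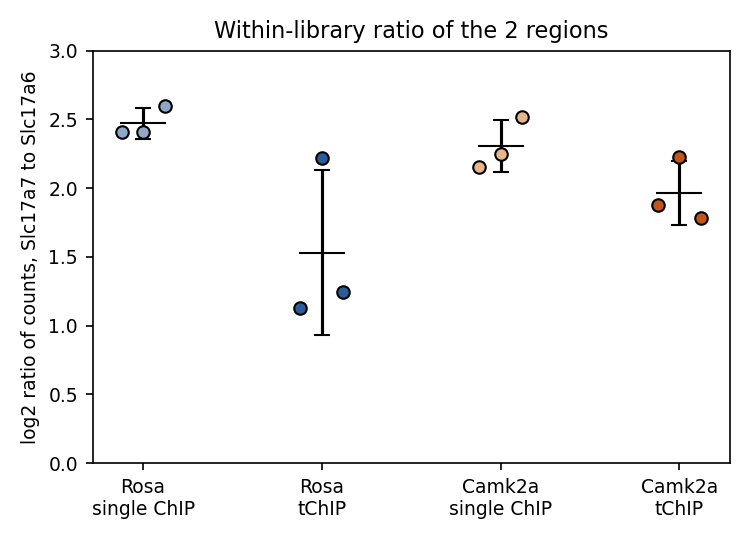
Log2 ratio of Slc17a7 to Slc17a6 counts within each library (vertical axis) by group; points are libraries, horizontal bars are means and error bars are SD of 3 libraries. Means run from 2.47 in Rosa single ChIP-Seq to 1.53 in Rosa tChIP-Seq, where a single library lies above the other two.

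The regions around the Slc17a7 promoter were counted as context. Within 100 kb of the gene there were 14 other regions. In the line comparison in tChIP-Seq, 2 of these were called higher, 4 lower and 8 not called, against 17.0% and 14.6% of all regions called higher and lower. None was called in single ChIP-Seq, where 0.928% and 1.22% of all regions were called. With so few regions, these counts are a description and no result about the locus. Within 100 kb of Slc17a6 there was no other counted region.

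The promoters whose profiles over the 12 libraries were most like those of the transporters were taken from the whole table. By Pearson's r of log2(CPM + 1) over 12751 TSS regions of protein-coding genes with a mean of at least 5 CPM, those for Slc17a7 were Cacna2d1, a calcium channel subunit (r = 0.997), Nell2, a secreted neuronal protein (0.996), Pacsin1, an adaptor of synaptic endocytosis (0.996), Rbfox3, the splicing factor known as NeuN (0.995), and Ppp2r2c, a phosphatase subunit (0.995). For Slc17a6 they were Tnk2, a tyrosine kinase (0.973), Foxo6, a forkhead factor (0.965), Car11 (0.964), Dpp3, a peptidase (0.957), and Rab27b, a GTPase of vesicle traffic (0.953). The r between Slc17a7 and Slc17a6 was 0.707, which ranked Slc17a6 1876th for Slc17a7. These values describe 12 libraries that share line, kind of ChIP-Seq and depth within groups, and carry no test.

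The lists of other genes were written by function or by cell type. They held 107 genes, of which 73 had a counted region, giving 76 distinct regions. In single ChIP-Seq, 1 of these was called higher in Camk2a than in Rosa and 1 lower, near the shares of 0.928% and 1.22% over all regions, so the counts say nothing particular about the lists. The first was Atp6v1c2 (log2 fold change 1.31, edgeR adjusted p = 5.49e-05, at 2.83 and 6.99 CPM in Rosa and Camk2a) and the other was Olig2 (-0.24, edgeR adjusted p = 0.00932). The values that follow are log2 fold changes of Camk2a against Rosa in tChIP-Seq, where the median over all regions was -0.0033 and 17.0% and 14.6% of all regions were called higher and lower, and the value after ± is the SE.

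Genes around the transporters in the glutamate cycle moved in both directions. Of the SLC17 family outside the members, only Slc17a5 (sialin, a lysosomal transporter) of 6 genes had a region, and it was not called (0.25, edgeR adjusted p = 0.119). Of 12 regions of glutamate supply genes, 3 were higher, 3 lower and 6 not called, with a median of 0.07. Those higher included Slc38a1, a neuronal glutamine carrier (0.58 ± 0.0754), and Got1, an aspartate aminotransferase (0.37 ± 0.0777). Those lower included Slc38a3, the glutamine carrier of astrocytes (-2.65 ± 0.14), and Glul, glutamine synthetase (-0.59 ± 0.0631). Got2 (0.23) and Slc38a7 (0.24) were not called.

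Of 5 regions of plasma membrane glutamate transporters, 3 were higher and 2 lower, with a median of 0.38. Slc1a6 (0.49 ± 0.115) and Slc1a1 (0.41 ± 0.0843), transporters known from neurons, rose. The other region that rose was that of Slc1a2 (GLT-1, 0.38 ± 0.0696), a transporter known mainly from astrocytes, which is named after its value was seen. Slc1a3 (GLAST, -1.60 ± 0.115) and the cystine-glutamate exchanger Slc7a11 (-1.24 ± 0.206), known from astrocytes, fell.

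The vesicular ATPase powers the transporters. Of 22 regions of the proton pump and ion balance list, 6 were higher, none lower and 16 not called, with a median of 0.14. The strongest were the subunits Atp6v0e2 (0.65 ± 0.0955) and Atp6v1g2 (0.46 ± 0.083), both known as brain forms. Not called were Atp6v1c2 (0.41) and the chloride carrier Clcn3, with 2 regions at 0.37 (edgeR adjusted p = 0.0106) and -0.04. In the list of other vesicular transporters, which also holds synaptic vesicle proteins of the SV2 family, 4 of 4 regions were higher, with a median of 1.02. They included the synaptic vesicle proteins Sv2b (1.27 ± 0.0971) and Sv2c (1.22 ± 0.12). The region assigned to Slc18a1 also holds a TSS of Atp6v1b2, so its reads cannot be divided between them, and it is counted in both lists. The vesicular GABA transporter Slc32a1 and the monoamine transporter Slc18a2 had no counted region. No region of this list thus belonged to a vesicular transmitter transporter alone.

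The cell type lists allowed the transporters to be set beside the neurons they are known for. Of 7 regions of cortical excitatory genes, 6 were higher and 1 lower, with a median of 0.92. Neurod2 (1.37 ± 0.079) and Neurod6 (1.33 ± 0.0926), transcription factors of cortical excitatory neurons, rose from 69.1 and 49.6 CPM in Rosa to 178 and 125 CPM in Camk2a tChIP-Seq. The exception was Emx2 (-0.91 ± 0.0943), a dorsal forebrain factor known also from progenitors and glia. The Slc17a7 value of 1.65 lay above those of all 7.

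Of 5 regions of thalamic and other subcortical excitatory genes, none was higher, 3 were lower and 2 not called, with a median of -1.44. Tcf7l2 fell by 2.78 (± 0.118) and Lef1 by 1.98 (± 0.103) on the log2 scale, both being transcription factors of Wnt signalling found in thalamic neurons and in other cells, Lef1 in endothelium and Tcf7l2 in oligodendrocyte lineage. The other region that fell was that of Pou4f1 (-1.44 ± 0.231). The 2 regions of Rora were not called (0.07 and -0.19). Slc17a6 thus rose in the same libraries in which no region of this list was called higher. As the tissue was labelled cerebral cortex and Tcf7l2 and Lef1 are found in other cells too, the list does not measure subcortical neurons alone. The other 6 genes of the list, among them Gbx2 and Lhx9, had no counted region.

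Of 4 regions of genes of neurons known for Slc17a8, 3 were higher and 1 not called, with a median of 0.91. Cck, the peptide cholecystokinin, which is also expressed by cortical excitatory neurons, was highest (1.67 ± 0.0845). The serotonergic factor Fev rose from 7.83 to 15.2 CPM in tChIP-Seq (0.99 ± 0.257), while in single ChIP-Seq it was at 1.59 CPM in Rosa and 1.79 CPM in Camk2a. The serotonin transporter Slc6a4 was not called (-0.07). Htr3a, Chat, Slc5a7 and Tph2 had no counted region.

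Regions of inhibitory neurons and of non-neuronal cells were lower in the libraries in which the transporters were higher. Of 5 inhibitory regions, 4 were lower and 1 not called, with a median of -1.03. Dlx2 (-1.30 ± 0.169) and Lhx6 (-1.198 ± 0.165), transcription factors of interneurons, fell, and Gad2 was not called (-0.55, edgeR adjusted p = 0.0198). Of 4 astrocyte regions, 4 were lower (median -2.50), with Aldh1l1 at -2.86 ± 0.27 and Aqp4 at -2.71 ± 0.271. Of 4 endothelial regions, 4 were lower (median -2.17), with Cdh5 at -3.01 ± 0.222 and Tek at -2.19 ± 0.274. Of 4 oligodendrocyte regions, 3 were lower and 1 higher (median -1.65), with Olig2 at -2.48 ± 0.142 and Mog at -1.96 ± 0.386. Mbp had a region on each side, at 1.18 and -1.34. No microglial gene of 5 had a counted region.

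**Figure D5:**
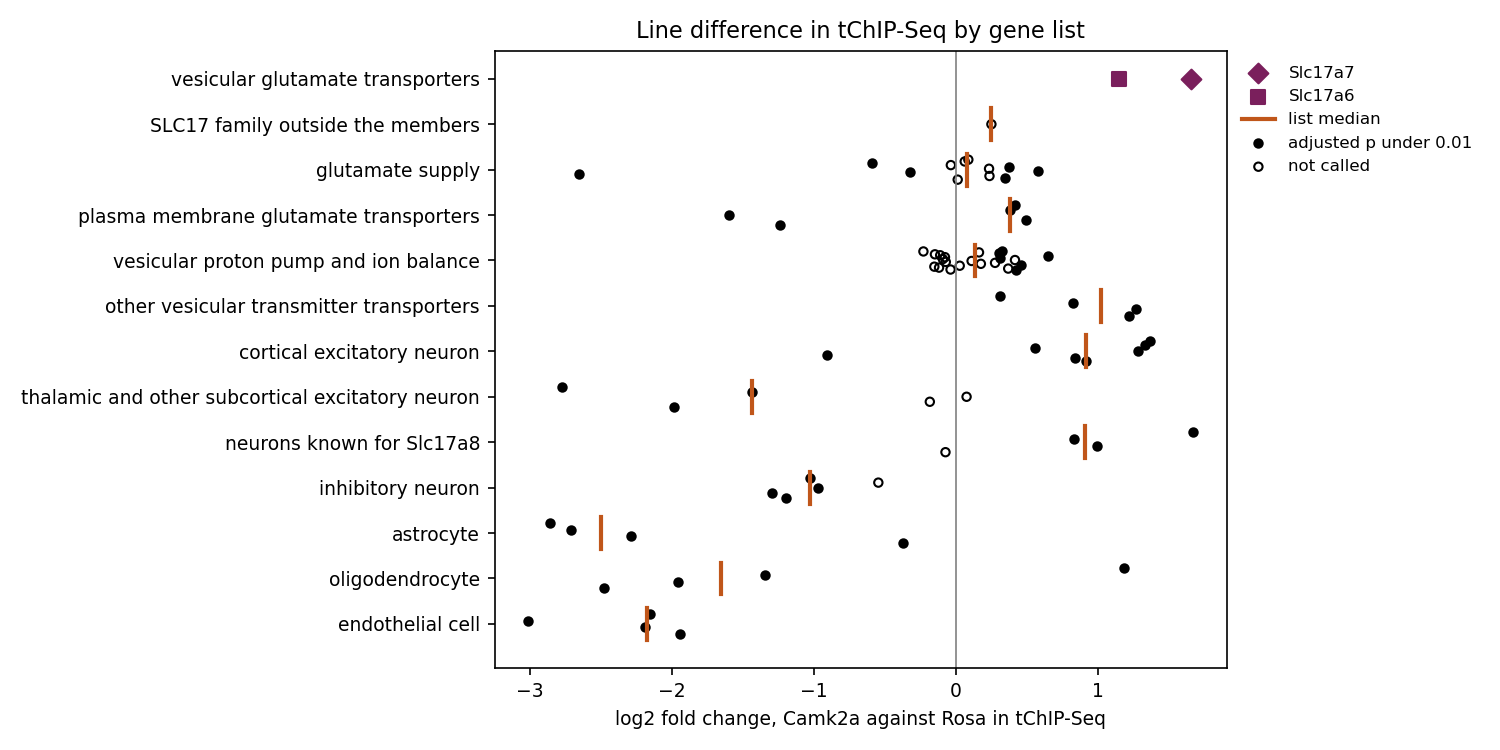
Log2 fold change of Camk2a against Rosa in tChIP-Seq (horizontal axis) for the member regions (purple, top) and for each region of the gene lists (rows); filled points have an adjusted p under 0.01, open points do not, and orange bars are list medians. Slc17a7 (1.65) and Slc17a6 (1.15) lie to the right, as does the cortical excitatory list (median 0.92). So do the lists of other vesicular transporters (median 1.02) and of neurons known for Slc17a8 (median 0.91). The subcortical excitatory list has a median of -1.44.

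In summed level, the 7 cortical excitatory regions had 539 to 580 CPM in Rosa tChIP-Seq and 963 to 1024 CPM in Camk2a tChIP-Seq. The 5 subcortical excitatory regions had 528 to 580 and 327 to 339 CPM. The 5 inhibitory regions had 131 to 150 and 67.1 to 70.9 CPM, the 4 astrocyte regions 269 to 301 and 129 to 140 CPM, the 4 oligodendrocyte regions 163 to 196 and 141 to 156 CPM, and the 4 endothelial regions 172 to 177 and 33.2 to 43.8 CPM. Single regions carried most of the astrocyte and oligodendrocyte sums in Camk2a tChIP-Seq. Sox9 had a mean of 143 CPM in Rosa and 110 CPM in Camk2a tChIP-Seq (-0.37 ± 0.0745). The Mbp region that rose had means of 50.8 and 115 CPM. The other regions of both lists fell by more than Sox9. No region of these lists was at 0 in a group. The ranges of the lines did not overlap for any of these lists, which is a description without a share for other sets of regions. The part of these lists in the differences of Slc17a7 and Slc17a6 was not tested.

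The cortical list also moved with Slc17a7 between the kinds of ChIP-Seq in Rosa. There, 6 of its 7 regions fell and 1 rose, with a median of -0.65, against 22.5% of all regions called lower. The same 7 regions summed to 812 to 829 CPM in Rosa single ChIP-Seq. Of the astrocyte regions, 4 of 4 rose in that comparison (median 0.64), and of the endothelial regions 2 of 4 rose and none fell (median 0.26). The oligodendrocyte list went the other way, with 3 of 4 regions lower and none higher (median -0.57), and its summed level was 239 to 257 CPM in Rosa single ChIP-Seq against 163 to 196 CPM in Rosa tChIP-Seq. The subcortical excitatory and inhibitory lists differed from the cortical list. Of their regions, 3 of 5 (median 0.43) and 2 of 5 (median 0.31) rose. None of either list fell. Those of the subcortical list that rose were Tcf7l2 and Lef1, found also in other cells, and Pou4f1. Pou4f1 rose most, by 1.96 ± 0.213, from 5.02 CPM in single ChIP-Seq to 19.4 CPM in tChIP-Seq. The list of neurons known for Slc17a8 was split, with 2 of 4 regions higher and 2 lower, among the latter Cck (-1.12 ± 0.084). Of all regions, 24.7% were called higher. The summed astrocyte level was 196 to 203 CPM in Rosa single ChIP-Seq, below the 269 to 301 CPM in Rosa tChIP-Seq, and the part of these shifts in the lower Slc17a7 value was not tested.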

How the data were processed

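H3K4me3 libraries of mouse cerebral cortex were analysed in 4 groups of 3, and 12 input and FLAG libraries were not analysed here. Per the paper's methods and the processing notes, the authors removed repeat reads (Bowtie2 2.1.0), mapped the rest to mm9 (Bowtie 1.0.0), suppressed duplicates (SAMtools), used peaks found by MACS in triplicate, and obtained the count of each peak from bedtools 2.17.0. The deposited values are whole read counts for the same 17993 regions in all 12 libraries, without normalization, and how the region list was merged was not given in the sources used here.

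Comparisons between 2 groups used their own 6 libraries, and the interaction used all 12, with the quasi-likelihood test of edgeR 4.0.16 (R 4.3.3, TMM, Benjamini-Hochberg adjustment over all regions, calls at an adjusted p under 0.01, no filter). CPM was calculated with TMM factors of all 12 libraries, and log2 fold changes came from each fit. Ratios used counts plus 0.5. TSSs were the 5′ ends of GENCODE M1 transcripts, whose NCBIM37 genome is mm9. Scripts were tested on simulated data. Same-numbered libraries did not deviate together (r from -0.0183 to 0.0446 over 13488 regions), and replicates differed slightly beyond sampling noise (chi-square per degree of freedom 1.03 to 1.10 within groups). The titles number the libraries of a line alike across assays, but no label says whether those with the same number share a lysate. The main tests treated them as unpaired, and p-values measure the spread between these libraries. The members and the gene lists were chosen with earlier results of these data known. Named were all regions of the members, the called list regions with the largest line difference in tChIP-Seq (up to 2 in each direction), up to 2 not called, and the 5 most similar profiles. Other genes named as lacking a region, Atp6v1b2, Slc1a2, Scyl2, Sox9 and Pou4f1 were added after the data were seen. One list gene is not reported here and was left out of its list. Alternatives were DESeq2 1.42.0 size factors or Wald test, library totals, at least 10 counts in every library, a replicate block, all 12 libraries in a single fit, thinning, a pseudocount of 1, and leaving out each library.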

Additional observations from a re-analysis of the deposited data

Results flagged for a closer look

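The line difference depended on the kind of ChIP-Seq for both transporters and for the list genes given below. The test was the interaction of line and kind in edgeR over all 12 libraries at an adjusted p under 0.01. Of all regions, 13.7% were called higher and 13.2% lower. Most of these list genes were named for a large line difference in tChIP-Seq of the same libraries, so their calls are no separate support. Fev, named in the same way, was not called (0.81, edgeR adjusted p = 0.185). Each value here is the log2 fold change of Camk2a against Rosa in tChIP-Seq minus that in single ChIP-Seq. It was 1.67 for Slc17a7 and 1.00 for Slc17a6 (n = 3 libraries a group).

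Among genes of the glutamate cycle and of vesicles, the difference was positive for Slc38a1 (0.56), Got1 (0.33), Slc1a6 (0.47), Slc1a1 (0.42), Slc1a2 (0.34), Atp6v0e2 (0.63), Atp6v1g2 (0.35), Sv2b (1.28) and Sv2c (1.02). It was negative for Slc38a3 (-2.51), Glul (-0.62), Slc1a3 (-1.68) and Slc7a11 (-1.50).

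Among cell type genes, it was positive for Neurod2 (1.35), Neurod6 (1.198) and Cck (1.67). It was negative for Emx2 (-1.0004), Tcf7l2 (-2.68), Lef1 (-1.98), Dlx2 (-1.38), Lhx6 (-1.15), Aldh1l1 (-2.71), Aqp4 (-2.78), Olig2 (-2.25), Mog (-1.53), Cdh5 (-3.13) and Tek (-2.10). The regions of Mbp differed in opposite directions (1.11 and -1.18). Groups of 3 libraries are too small for a test of outlying libraries, and none was made.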

How the results depend on the processing

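Of 132 values of Slc17a7 and Slc17a6 under the alternatives, 130 kept their direction and their side of the threshold. The exceptions were the difference of Slc17a7 between lines in single ChIP-Seq, -0.02 and not called, which was 0.0055 with library totals and 0.0051 after thinning to the tChIP-Seq totals, also not called. For Slc17a6 in tChIP-Seq, the line difference ranged from 0.88 to 1.39 and its highest adjusted p was 0.00011; for the interaction the range was 0.74 to 1.25 and the highest adjusted p 0.0080. The line difference of Slc17a7 in tChIP-Seq ranged from 1.58 to 1.68. The log2 ratio of Slc17a7 to Slc17a6 between lines in tChIP-Seq ranged from 0.23 to 0.78 on leaving out a library. The replicate block gave 1.66 for Slc17a7 and 1.15 for Slc17a6 in the line comparison in tChIP-Seq and changed no call of either gene; the count of calls there was 2948 higher and 2520 lower with the block. Over all regions, the line comparison in single ChIP-Seq was the least stable in its counts: 167 higher and 219 lower became 27 and 7 with the Wald test of DESeq2, 19 and 9 after thinning, 57 lower with library totals, and 69 to 131 higher and 49 to 165 lower without 1 library. Between kinds of ChIP-Seq, the regions lower in tChIP-Seq were 2522 against 4046 for Rosa with library totals, and 2414 against 4058 for Camk2a with DESeq2. The cause was not tested. The depth of the Rosa tChIP-Seq libraries, with 14 to 35 reads at Slc17a6, limits what can be said of that gene there. The ratios with Slc17a8 were not run because it has no region, and the other definitions of a TSS gave the same 2 regions.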
